A study of Mus musculus with 6 samples.

Results

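The nuclear genes for the subunits of oxidative phosphorylation were followed in irradiated mouse jejunum, with and without VND3207. Members were all non-control probes on the array whose gene name is Nduf with a, b, c, s or v and a number, Sdha to Sdhd, Uqcr with any ending, Cox4 to Cox8 followed by a, b or c, or Atp5 followed by a letter. Assembly factors such as Ndufaf4 and subunits such as Ndufab1 and Cox4i1 fall outside it. The rule took 116 probes with 81 gene names, of 55681 non-control probes in all. Complex I had 44 of them (36 gene names), complex II had 6 (4), complex III had 15 (8), complex IV had 22 (16) and complex V had 29 (17). A few names do not stand for a core subunit: Cox7a2l is a supercomplex assembly factor, Atp5s and Atp5sl are now called Dmac2l and Dmac2, and Ndufa4 belongs to complex IV rather than complex I.

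The treated group was 3 male C57BL/6J mice given 100 mg/kg VND3207, a compound known here only by its code name, into the stomach. The control group was 3 male C57BL/6J mice given the same volume of vehicle. Every mouse was irradiated with 9 Gy at 0.5 h after dosing, and whole jejunum was taken 6 h after irradiation. No unirradiated tissue was analysed here, and age is not given in the labels, so the comparison asks only what VND3207 changed in tissue that had all been irradiated.

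Oxidative phosphorylation takes electrons from NADH at complex I and from succinate at complex II, passes them through complex III and cytochrome c to oxygen at complex IV, and uses the proton gradient to make ATP at complex V. Most subunits are encoded in the nucleus and imported, and a small set is made from mitochondrial DNA. In the small intestine absorptive enterocytes are rich in mitochondria, and ATP from this pathway drives nutrient transport.

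Each array carried 62976 spots, and the share of non-control spots marked as well above background was 58.8% to 61.4% on VND3207 arrays, against 66.7% to 70.0% on vehicle arrays. No spot was saturated. All VND3207 arrays were on slide 2 and scan 2 and all vehicle arrays on slide 1 and scan 1, so slide, scan and treatment cannot be told apart in any value below. All 8 epithelial markers were well above background on all 6 arrays. Their summed signal, in units of the 75th percentile of each array, was 1585 to 1731 on VND3207 arrays and 2072 to 2318 on vehicle arrays. These did not overlap, and the part of this sum in the results was not tested. Vil1, Fabp2, Lct and Krt20 were lower (limma adjusted p = 0.0233 to 0.0498), and Epcam, Alpi, Sis and Cdh1 did not pass. Cdh1 differed by 0.17 in log2, with every VND3207 array above every vehicle array. Among all probes with a log2 level of 8 or more above the 75th percentile, 44.4% were lower. The array of VND3207 replicate 3 stood apart in smooth muscle: its summed signal over 6 markers was 57.9, against 242 and 259 on the other VND3207 arrays and 211 to 268 on vehicle arrays. The RNA is from whole tissue, so fewer cells of a type and less RNA per cell cannot be told apart.

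Levels are log2 processed signals minus the 75th percentile of the array, so a level of 0 is the brightness that 3 in 4 spots do not exceed. A difference is the VND3207 mean minus the vehicle mean on that scale. Of the 116 probes, 114 (79 gene names) cleared the background on 3 or more arrays of either group and were tested. Of these, 94 had a mean level of 5 or more. The 2 left out, Cox7b2 and Cox8c, encode testis isoforms of complex IV subunits and were not well above background on any array. The median SD between mice was 0.096 in the VND3207 group and 0.13 in the vehicle group.

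With VND3207, 6 of the 114 probes were lower and 0 were higher at an adjusted p under 0.05 (limma, Benjamini-Hochberg over all 36098 tested probes). An unadjusted p under 0.05 was reached by 25 (21.9%), against 27.2% of all tested probes. The 6 were Uqcrq by both of its probes in complex III, Cox6a2 in complex IV, and Atp5b, Atp5g3 and 1 of 2 Atp5h probes in complex V. No probe of complex I or II passed. Under quantile normalization 2 members, Atp5g3 and Atp5h, were lower and 0 higher (8.97% and 2.59% of all probes), and after smooth trends with position on the array, brightness and GC content were taken out 3 were lower and 2 higher (6.47% and 2.86% of all probes). None of those 5 was among the 6. The 6 make up 5.26% of the tested members. Over all tested probes 14.6% were lower and 0.925% higher, and among the 13141 probes brighter than the 75th percentile 4.57% were lower and 0.662% higher. The members' share is thus below the share of the whole array. It is close to that of the probes brighter than the 75th percentile, but their median level was 2.37, against 6.21 for the members. At a mean level of 5 or more 5.32% of members were lower, against 12.3% of all probes.

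The median difference of the members was -0.14, and 92 of 114 differences (80.7%) were below 0, against 58.1% of all tested probes. At a mean level of 5 or more the shares were 83.0% of members and 70.8% of all probes that bright. Over all tested probes the median was -0.06, and over the probes brighter than the 75th percentile it was 0.01. Under quantile normalization the members' median was -0.013. By complex the median was -0.11 for I, -0.03 for II, -0.23 for III, -0.15 for IV and -0.21 for V. All VND3207 arrays lay below all vehicle arrays for 39 members (34.2%, against 24.9% of all tested probes and 14.3% of the brighter ones) and above them for 4 (3.51%, against 9.41% and 13.6%). At a level of 5 or more they lay below for 37.2% of members and 33.7% of all probes. Of the 39, 14 were in complex V, 10 in complex III, 8 in complex IV, 6 in complex I and 1 in complex II.

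**Figure D1:**
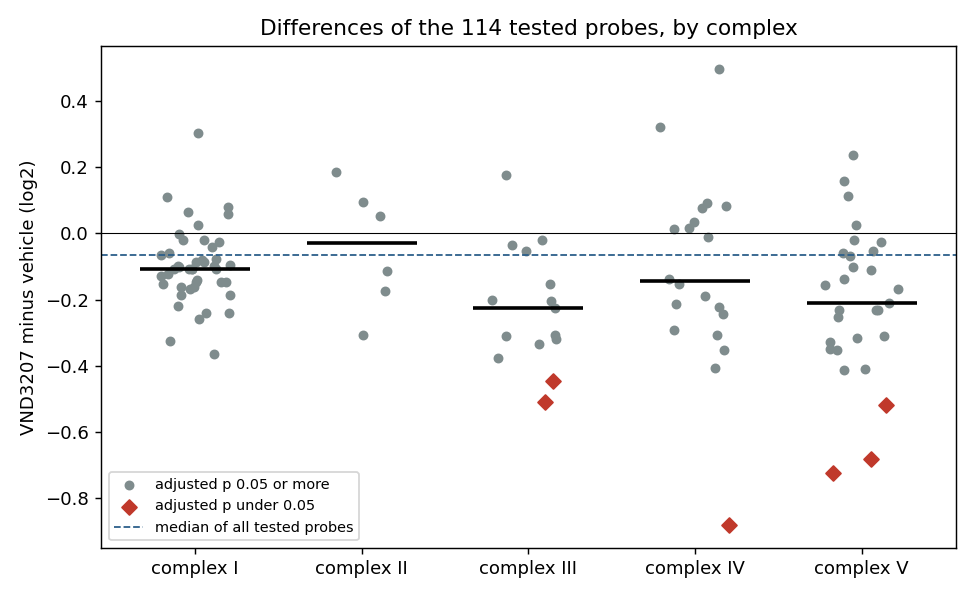
Difference between the VND3207 and vehicle means (log2) of each of the 114 tested probes, by complex, with black bars at the complex medians and a dashed line at the median of all tested probes. Red diamonds are the 6 probes with an adjusted p under 0.05; they lie in complexes III, IV and V, while complexes I and II hold grey points only.

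The shift was not even between mice. The median deviation of the members from their own mean over the 6 arrays was -0.16, -0.08 and 0.01 in VND3207 mice 1 to 3, and 0.06, 0.20 and -0.02 in vehicle mice 1 to 3. VND3207 replicate 3 lay above vehicle replicate 3, so the groups overlapped on this measure. The count of lower members was 2 without VND3207 replicate 1, 2 without VND3207 replicate 2 and 5 without VND3207 replicate 3. It was 2 without vehicle replicate 1, 1 without vehicle replicate 2 and 3 without vehicle replicate 3. Of all tested probes 10.5%, 10.3% and 14% were lower without VND3207 replicates 1 to 3, and 11.5%, 8.22% and 11.1% without vehicle replicates 1 to 3. Atp5g3 passed in all 6 of these fits, Atp5h in 5, Atp5b in 2, Cox6a2 and the Uqcrq probe A_55_P1965378 in 1 each, and the other Uqcrq probe in 0.

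The difference followed brightness across the whole array, and from a level of 6 upwards the members lay close to that course. At a level of 4 to 5 the median difference was -0.11 for 9 members and -0.002 for all tested probes. At a mean level of 5 to 6 the median difference was -0.11 for 26 members and -0.04 for all tested probes. At a level of 6 to 7 the medians were -0.12 for 45 members and -0.11 for all probes. At 7 to 8 they were -0.22 for 20 members and -0.22 for all probes, and at 8 or more -0.41 for 3 members and -0.42 for all 133 probes. From 6 upwards the members' median lay within 0.02 of that of all equally bright probes, and between 4 and 6 it was the lower one. At a level of 5 or more, 5 of 94 members (5.32%) were lower, against 12.3% of all 2106 tested probes that bright.

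**Figure D2:**
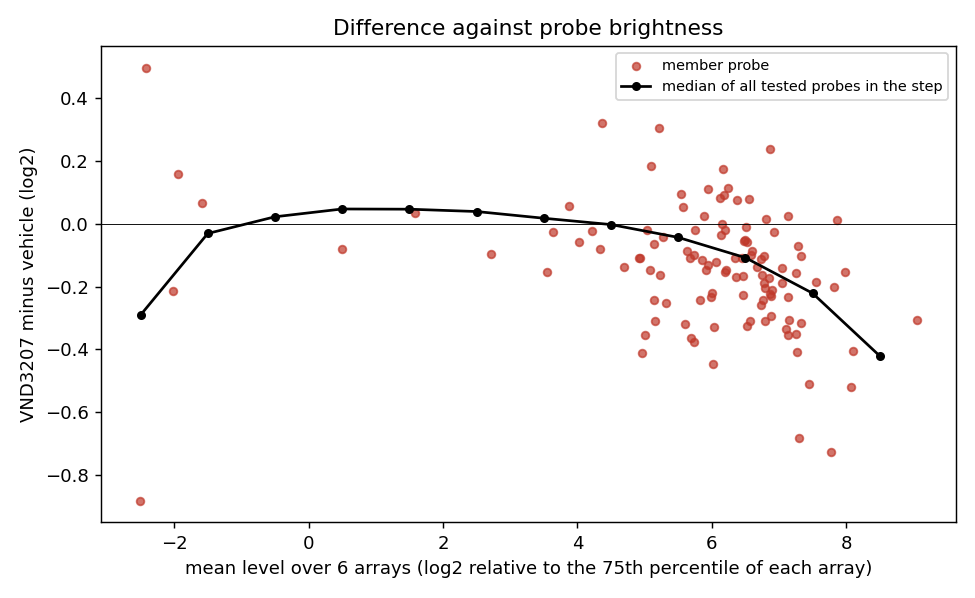
Difference between VND3207 and vehicle (log2) against mean level over the 6 arrays for the 114 tested members (red), with the median of all tested probes in steps of 1 on the level axis (black line, drawn at the middle of each step, with open ends pooled). The black line bends down at both ends, and the members at levels above 6 lie around it.

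Complex I oxidises NADH and is the largest complex of the chain. None of its 44 probes passed the test, against 14.6% lower of all tested probes. Its median level was 5.93, and of all tested probes at a level of 5 to 6 a smaller share, 5.73%, was lower. Of the differences 38 were below 0 (86.4%, against 58.1% of all tested probes and 70.8% of those at a level of 5 or more). They ran from -0.36 to 0.31. Ndufb3, an accessory subunit of the membrane arm, had levels of 5.38, 5.48 and 5.69 in VND3207 mice and 5.75, 6.12 and 5.78 in vehicle mice. Every VND3207 mouse was below every vehicle mouse, but the difference of -0.36 ± 0.15 (moderated SE, limma) had an adjusted p of 0.178. Ndufb8, another membrane-arm accessory subunit, differed by -0.33 ± 0.12 (limma adjusted p = 0.128), also without overlap.

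At the other end of complex I, the Ndufb6 probe A_55_P1974467 had 5.25, 5.43 and 5.42 in VND3207 mice against 5.11, 5.24 and 4.83 in vehicle mice. The groups did not overlap, and the difference of 0.31 ± 0.14 had a limma adjusted p of 0.225. The second Ndufb6 probe differed by -0.04 ± 0.11, with overlap, so the 2 probes of this membrane-arm subunit did not point the same way. Ndufc2 differed by 0.11 ± 0.12. Ndufa13, Ndufb9 and Ndufs6, the probes of highest signal, had mean levels of 7.46, 6.95 and 6.98 in VND3207 mice and 7.64, 7.14 and 7.12 in vehicle mice. Their differences of -0.19, -0.19 and -0.14 each had overlapping groups. The catalytic core showed small differences: Ndufv1, which binds NADH, had -0.24 ± 0.11 and Ndufs1 had -0.09 ± 0.11 (both chosen after their values were seen).

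Complex II, succinate dehydrogenase, is also an enzyme of the citric acid cycle, and it had 6 probes and no call. Its median difference of -0.03 took a positive sign under quantile normalization (0.08) and without vehicle replicate 2 (0.03), VND3207 replicate 1 (0.03) or VND3207 replicate 2 (0.0032), so no direction is given for it. Sdha, the flavoprotein, had levels of 5.67, 5.78 and 5.97 in VND3207 mice and 5.84, 6.03 and 5.88 in vehicle mice, with overlap. Sdhd, a membrane anchor, differed by -0.17 ± 0.13 and the 2 probes of the anchor Sdhc by 0.19 ± 0.14 and 0.05 ± 0.15. Sdhb, the iron-sulphur subunit, was read differently by its 2 probes, at -0.31 ± 0.12 (limma adjusted p = 0.153) and 0.10 ± 0.11, which is taken up below.

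Complex III passes electrons from ubiquinol to cytochrome c. Of its 15 probes, 14 had a difference below 0 (93.3%, against 58.1% of all tested probes and 70.8% at a level of 5 or more). Every VND3207 array lay below every vehicle array for 10 probes (66.7%, against 24.9% of all tested probes and 33.7% at a level of 5 or more). The 15 probes stand for 8 gene names, and probes of Uqcr10, Uqcr11, Uqcrb and Uqcrh overlap in sequence, so these counts are not of independent readings. The 2 called probes, both of Uqcrq, make up 13.3%, near the 14.6% lower of all tested probes and the 12.3% at a level of 5 or more. Uqcrq encodes a small subunit next to cytochrome b. Its probe A_55_P1965378 had 7.09, 7.21 and 7.27 in VND3207 mice against 7.64, 7.82 and 7.63 in vehicle mice. The highest VND3207 value lay well below the lowest vehicle value, and the difference of -0.51 ± 0.11 is a signal 29.7% lower (limma adjusted p = 0.0264). The second probe, A_55_P2098802, had 5.72, 5.79 and 5.87 against 6.16, 6.35 and 6.22, a difference of -0.45 ± 0.10 (limma adjusted p = 0.0349). The 2 probes do not share bases and gave nearly the same difference, but neither passed after correction for position, brightness and GC content (-0.41 and -0.35, limma adjusted p = 0.0571 and 0.0858) or quantile normalization (-0.23 and -0.35, adjusted p = 0.157 and 0.0658).

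The other complex III members did not pass. Uqcrh, the hinge protein that helps cytochrome c dock, had levels of 6.86, 6.95 and 7.0 in VND3207 mice against 7.25, 7.40 and 7.17 in vehicle mice by its probe A_55_P2052470. Those groups did not overlap, and the difference of -0.33 ± 0.11 had a limma adjusted p of 0.0982; its other probe gave -0.20 ± 0.12. The most positive differences were 0.18 ± 0.25 for a Uqcr11 probe and -0.02 ± 0.12 for a Uqcr10 probe. That Uqcr11 probe, A_55_P1979743, had 6.15, 6.28 and 6.35 in VND3207 mice and 6.26, 6.46 and 5.53 in vehicle mice, so 1 vehicle array set its sign: without vehicle replicate 3 the difference was -0.10. The second Uqcr11 probe had no such low value on that array and differed by -0.20 ± 0.11.

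Uqcrc2, a core protein of complex III, was printed 10 times on each array and shows the error between spots of an array, which leaves out labelling, hybridisation and slide. The SD between its spots was 0.021 to 0.034 on VND3207 arrays (9 or 10 spots used) and 0.046 to 0.063 on vehicle arrays (10 spots). Its level was 6.35, 6.49 and 6.58 in VND3207 mice and 6.58, 6.57 and 6.43 in vehicle mice. The groups overlapped, with a difference of -0.05 ± 0.11.

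Complex IV, cytochrome c oxidase, passes electrons to oxygen, and several of its subunits exist as tissue isoforms. Of 20 tested probes 1 passed (5%, against 14.6% lower of all tested probes), and 12 differences were below 0 (60%, against 58.1%). Its median level was 6.44, and of all tested probes at a level of 6 to 7, 10.3% were lower. The median of -0.15 took a positive sign under quantile normalization (0.08) and after the correction for position, brightness and GC content (0.07). The ubiquitous isoform Cox6a1 had levels of 8.83, 8.90 and 8.96 in VND3207 mice and 9.09, 9.39 and 9.13 in vehicle mice. These did not overlap, and the difference of -0.31 ± 0.12 (limma adjusted p = 0.165) was smaller than the median of -0.42 among all probes at a level of 8 or more. Cox5a, a matrix-side subunit, differed by -0.15 ± 0.13 with overlap. The most positive difference among the evenly measured probes was that of the Cox7a2l probe A_55_P2102569. It had 4.58, 4.51 and 4.47 in VND3207 mice and 4.27, 4.18 and 4.16 in vehicle mice, without overlap, a difference of 0.32 ± 0.09 (limma adjusted p = 0.0768). The other Cox7a2l probes gave -0.01 ± 0.09 and 0.08 ± 0.09.

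The one complex IV call was Cox6a2, the isoform of subunit VIa found in heart and skeletal muscle. It was a dim probe, well above background on all 6 arrays, at -3.30, -2.84 and -2.69 in VND3207 mice and -2.26, -1.83 and -2.10 in vehicle mice. Its groups did not overlap and the difference was -0.88 ± 0.20, a signal 45.7% lower (limma adjusted p = 0.0328). Among all probes at levels below -2 the median difference was -0.29 and 24.9% were lower, and after the correction for position, brightness and GC content Cox6a2 stood at -0.30 (limma adjusted p = 0.348). Of 9 striated muscle markers, 5 were well above background on all arrays and Myh4 on none. Their summed signal ran from 5.15 to 8.74 on VND3207 arrays and from 5.56 to 6.63 on vehicle arrays, which overlap, and most of the sum is Acta1. Tnnt3 was well above background on 0 VND3207 arrays and 3 vehicle arrays, with levels of -4.88, -4.79 and -4.80 in VND3207 mice and -3.60, -3.33 and -3.40 in vehicle mice. Ckm, Tnnt2 and Myh7 differed by -0.58, -0.80 and -0.86 and did not pass, and Acta1 and Actc1 differed by 0.41 and 0.43. Ckm had -1.52, -1.41 and -4.01 in VND3207 mice and -1.87, -1.83 and -1.51 in vehicle mice. Tnnt2 had 0.32, 0.52 and -1.88 against 0.21, 0.51 and 0.62, and Myh7 had -1.94, -1.61 and -3.22 against -1.24, -1.77 and -1.17. Each was lowest in VND3207 replicate 3, where Cox6a2 was the highest of the VND3207 group. The part of striated muscle in the Cox6a2 difference was not tested. Cox7a1, the muscle isoform of subunit VIIa, differed by 0.02 ± 0.15.

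Cox8b, the heart, muscle and brown fat isoform of subunit VIII, had the largest SD of any tested member, 2.47 in the VND3207 group. Its levels were 0.01, -1.68 and -4.85 in VND3207 mice and -1.99, -3.43 and -2.59 in vehicle mice, and it was well above background on 2 VND3207 and 3 vehicle arrays. The groups overlapped throughout and the difference was 0.50 ± 1.20 (limma adjusted p = 0.841). Adipocyte markers varied between the same mice. Adipoq, which encodes adiponectin, had levels of 2.67, 0.26 and -3.97 in VND3207 mice and 0.05, -4.75 and -2.03 in vehicle mice. Cidec, another of them, did not vary that way, at 4.84, 4.62 and 4.87 in VND3207 mice and 4.88, 4.98 and 4.29 in vehicle mice. Over the 6 adipocyte markers the summed signal was 34.3 to 123 on VND3207 arrays and 27.5 to 52.1 on vehicle arrays, with 4 of the 6 well above background on every array. Of the brown fat markers, Ucp1 and Elovl3 were not well above background on any array, while Cidea was on all 6. Its levels were -1.35, -1.26 and -2.28 in VND3207 mice and -1.79, -1.55 and -1.09 in vehicle mice. The part of fat in the Cox8b values was not tested.

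**Figure D3:**
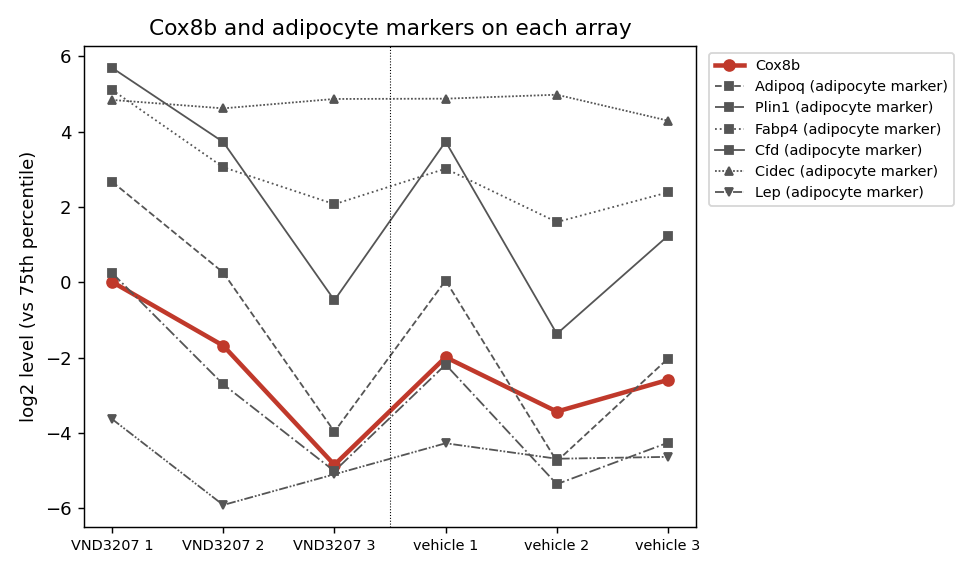
Level (log2 relative to the 75th percentile of each array) of Cox8b (red) and of 6 adipocyte markers (grey) on each array, VND3207 mice left of the dotted line and vehicle mice right of it. Cox8b is highest on the array of VND3207 replicate 1, at 0.01, where Adipoq is highest too, at 2.67, while Cidec is highest at 4.98 in vehicle replicate 2; lines join arrays only to guide the eye.

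Complex V, ATP synthase, had the most calls by count, 3 of 29 probes. That is 10.3%, against 13.3% of complex III, 14.6% of all tested probes and 12.3% of those at a level of 5 or more. Of its 29 differences, 25 were below 0 (86.2%, against 58.1% of all tested probes and 70.8% of those at a level of 5 or more). Atp5g3 encodes 1 of 3 precursors of the membrane ring subunit c, all of which give the same mature protein. Its probe A_55_P2046703 (mm9 chr2:73746519-73746578, minus strand) had 7.38, 7.37 and 7.48 in VND3207 mice and 8.04, 8.31 and 8.05 in vehicle mice. The gap between the groups was larger than the spread in either, and the difference of -0.73 ± 0.12 is a signal 39.6% lower (limma adjusted p = 0.0102). It passed in 16 of 17 alternatives, the exception being the correction for position, brightness and GC content (-0.34, limma adjusted p = 0.102). The other subunit c genes did not pass: Atp5g1 had -0.16 ± 0.10, and the 2 probes of Atp5g2 had -0.14 ± 0.10 and 0.02 ± 0.09 (chosen after their values were seen).

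Atp5b, the catalytic beta subunit, had levels of 7.71, 7.86 and 7.88 in VND3207 mice and 8.37, 8.40 and 8.24 in vehicle mice (mm9 chr10:127527255-127527314, plus strand). Its groups did not overlap, and the difference was -0.52 ± 0.10, or 30.3% less signal (limma adjusted p = 0.0211). Under quantile normalization this became -0.14 (limma adjusted p = 0.388), and after the correction for position, brightness and GC content it was -0.38 (adjusted p = 0.0827). Atp5a1, the alpha subunit that forms the catalytic head with it, differed by -0.35 ± 0.10 without overlap (limma adjusted p = 0.0725).

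Atp5h, a subunit of the peripheral stalk, was read by 2 probes that disagreed. Probe A_55_P2152304 had 6.83, 6.96 and 7.08 in VND3207 mice and 7.56, 7.78 and 7.58 in vehicle mice, without overlap. The difference was -0.68 ± 0.12, or 37.7% less signal (limma adjusted p = 0.0132). Probe A_55_P2152305 had 7.18, 7.27 and 7.37 in VND3207 mice and 7.36, 7.48 and 7.29 in vehicle mice, with overlap and a difference of -0.10 ± 0.11. The first probe did not pass without vehicle replicate 2 (-0.61, limma adjusted p = 0.0527) or after the correction for position, brightness and GC content (-0.22, adjusted p = 0.218).

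The probes of Atp5c1, the gamma subunit of the central stalk, also differed. A_55_P2150906 had 4.74, 4.80 and 4.93 in VND3207 mice and 5.12, 5.28 and 5.13 in vehicle mice, a difference of -0.35 ± 0.11 without overlap (limma adjusted p = 0.0815). A_55_P2150908 had 6.94, 6.95 and 7.09 in VND3207 mice but 7.26, 7.38 and 5.62 in vehicle mice, and its difference of 0.24 ± 0.47 rests on the low value of vehicle replicate 3, without which it was -0.33. Atp5j2, a small membrane subunit, differed by -0.32 ± 0.13 at its bright probe (limma adjusted p = 0.19). Atp5s, now Dmac2l, differed by 0.16 ± 0.16.

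**Figure D4:**
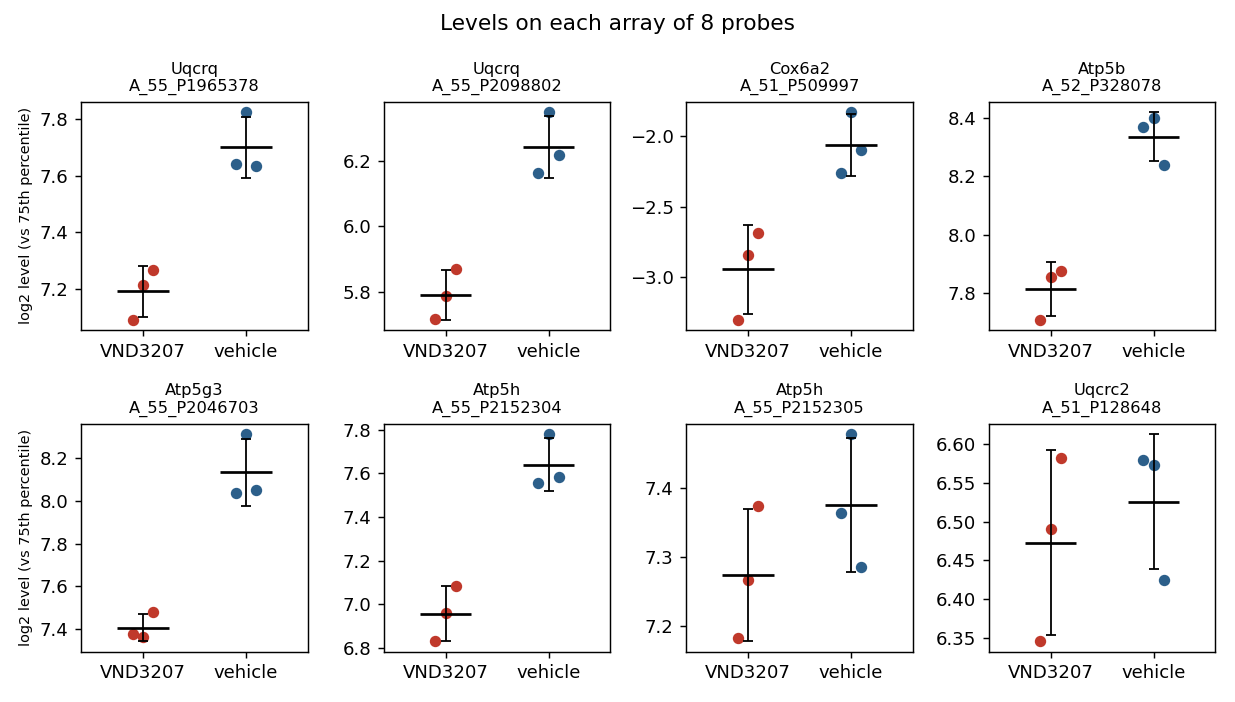
Level on each array (log2 relative to the 75th percentile of the array) of the 6 probes with an adjusted p under 0.05, of the second Atp5h probe and of Uqcrc2, with VND3207 left and vehicle right in each panel. Points are mice, bars are means and whiskers SD (n = 3 each), and the vertical scale differs between panels; the groups are apart for the 6 called probes and overlap for the last 2.

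The probes of a gene differ in where they lie along its transcript. Messenger RNAs carry the signal AATAAA a short way before the poly(A) tail, so a probe holding these letters often lies at the very end of the transcript, although the letters also occur elsewhere. Of the 114 tested members, 38 (33.3%) held it, against 14.4% of all tested probes with a gene name. The following 30-base stretches of the 60-base probes are shown for 3 genes whose 2 probes are compared below, with AATAAA in capitals where present and mm9 positions of the probe.
Atp5h A_55_P2152304, chr11:115277011-115277070, minus strand: cggccgacatgaAATAAAacatttaaatag
Atp5h A_55_P2152305, chr11:115277088-115277147, minus strand: agctggacaaaaagaagtacccgtactggc
Cox8a A_51_P517495, chr19:7289652-7289708, minus strand: cccctttgtaacAATAAAgtctatttaaac
Cox8a A_55_P2018747, chr19:7289722-7289781, minus strand: catgacctctcgatgtctccatggtgacaa
Sdhb A_66_P116126, chr4:140535052-140535108, plus strand: tacagcatatgtAATAAAcatttaagataa
Sdhb A_55_P1953980, chr4:140529606-140529665, plus strand: gatgagtcccaggagggcaagcaacagtat

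In each of these 3 genes the probe with the signal lies further along the transcript than its partner. Exon and UTR positions are not given because no annotation of this build was used here. The members holding AATAAA had a median difference of -0.19 and the others -0.10. This gap was smaller at a level of 6 to 7, with medians of -0.14 and -0.11. Under quantile normalization the members' medians were -0.026 and 0.0012, and after the correction for position, brightness and GC content -0.030 and -0.004. Among all tested probes with a gene name the medians were -0.16 and -0.08 at a level of 5 or more, and -0.18 and -0.06 at 6 to 7. The members holding it were also brighter, with a median level of 6.74 (5.97 for the others), and poorer in GC, with a median of 40% (45%).

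A comparison within genes takes the level of a gene's probes with AATAAA minus that of its other probes on the same array, so array scaling cancels. It could be made for 16 member gene names, and the signal probe had the more negative difference in 14 of them. The share of 87.5% compares with 52.3% of all 1147 gene names with both kinds of probe, and with 78.3% of the 83 that had a mean level of 5 or more. In a limma fit over the 1147 gene names, 5.75% were lower and 5.93% higher at an adjusted p under 0.05, and 3 of the 16 members (18.8%) were lower, none higher. Of the 83 gene names at a level of 5 or more 20.5% were lower and 3.61% higher, and the members' share was near that. The 16 were not filtered by level, and the 83 include the brighter of them, so these shares do not come from separate genes.

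For Atp5h this within-array difference was -0.35, -0.31 and -0.29 in VND3207 mice and 0.19, 0.30 and 0.30 in vehicle mice. The mice of each group lay close together and the groups were far apart, and the change was -0.58 ± 0.07 (limma adjusted p = 0.0116). Cox8a, the ubiquitous isoform of complex IV subunit VIII, had 0.04, 0.03 and 0.04 in VND3207 mice against 0.45, 0.45 and 0.48 in vehicle mice. The mice of each group lay within 0.03 of each other, and the change was -0.42 ± 0.06 (limma adjusted p = 0.0183). Sdhb had 1.35, 1.45 and 1.42 in VND3207 mice against 1.68, 1.90 and 1.85 in vehicle mice, without overlap, a change of -0.40 ± 0.09 (limma adjusted p = 0.0434).

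Uqcrq showed no such split. Its within-array difference was 1.37, 1.43 and 1.40 in VND3207 mice and 1.48, 1.48 and 1.42 in vehicle mice, with overlap, a change of -0.06 ± 0.07 (limma adjusted p = 0.582). Atp5f1, now Atp5pb, and Atp5k went the other way, at 0.23 ± 0.07 (limma adjusted p = 0.0983) and 0.15 ± 0.08 (adjusted p = 0.266). The 3 calls held after the correction for position, brightness and GC content (adjusted p = 0.0176 to 0.0257, limma) and without vehicle replicate 1. Without VND3207 replicate 1, 2 or 3, or vehicle replicate 2 or 3, 1 of them (Atp5h) remained, and with the replicate number as a block 0 did. The shares of all gene names called in these fits are not given here. Sdhb did not pass under quantile normalization (-0.25, limma adjusted p = 0.113), in the deposited values (-0.26, adjusted p = 0.109) or after normexp background correction (-0.38, adjusted p = 0.0516). Cox8a did not pass after normexp (-0.22, limma adjusted p = 0.197).

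**Figure D5:**
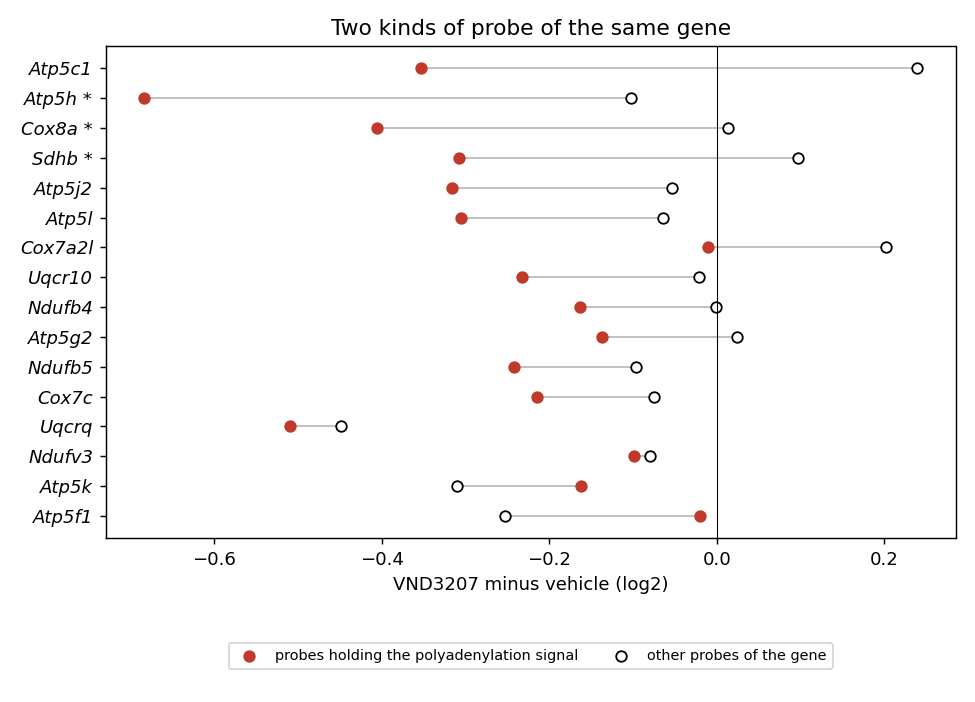
Difference between VND3207 and vehicle (log2) of the probes holding AATAAA (red) and of the other probes (open) of the 16 member gene names with both kinds, joined by grey lines and ordered by the gap. Stars mark the 3 gene names whose gap had an adjusted p under 0.05; the red point is left of the open one in 14 of 16 rows.

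Of the called probes without a full AATAAA, 3 are shown to set beside these, each as the last 30 bases of its 60.
Atp5g3 A_55_P2046703: tatatgttatttccacagtcatttcattaa
Atp5b A_52_P328078: tctctgaagagtatttaaagttttcaataa
Cox6a2 A_51_P509997 (chr7:135349160-135349219, minus strand): ggctctgagagcccctgaggttccagtgga

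Several members are read by more than 1 probe, and near-identical copies in the genome could not be looked up here. Of the 79 gene names, 25 had more than 1 tested probe (60 probes), and the median gap between their highest and lowest difference was 0.20. Only Atp5c1 and Atp5h had a gap over 0.5. The 6 probes of Atp5l, a small membrane subunit of complex V, ran from -0.41 to -0.06. Its probes A_55_P2002602 and A_55_P2024021 share 55 mm9 positions yet differ in 3 bases, and 9 of 15 overlapping probe pairs of a gene carried such mismatches. Their signals may mix transcripts of copies and are uncertain for that reason. Likewise 2 of 3 Atp5k probes are placed on chromosome Y and 1 of 2 Cox5b probes on chromosome 15 by the files.

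NRF1, GABPA and YY1 are transcription factors known to control many of these genes, and their sites were looked for. Promoter windows (250 bases before to 50 after the start, RefSeq, GRCm38.p6) were found for 69 of the 81 gene names, and 3 motifs were searched on both strands (chosen, and for NRF1 and YY1 shortened by 1 base, after shares had been seen). GCGCATGCG, bound by NRF1, was in 8 of 69 (11.6%), against 1.95% of 27025 promoters in all. AAGATGGCG, bound by YY1, was in 8 of 69 (11.6%), against 1.64%. CCGGAAGT, bound by GABPA, was in 5 of 69 (7.25%), against 4.31%. One site of each is shown in 30 bases on the strand of the gene, with the motif or its reverse complement in capitals.
Uqcrc1, NRF1, chr9:108936668-108936697, plus strand: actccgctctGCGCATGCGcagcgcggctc
Ndufs7, YY1, chr10:80249463-80249492, plus strand: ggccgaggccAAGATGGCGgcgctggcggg
Atp5h, GABPA, chr11:115419939-115419968, minus strand: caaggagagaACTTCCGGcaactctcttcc

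Uqcrc1, a core protein of complex III, had levels of 5.33, 5.47 and 5.53 in VND3207 mice and 5.83, 5.89 and 5.56 in vehicle mice, and Ndufs7 of complex I differed by -0.11 ± 0.12. The Uqcrc1 difference of -0.32 ± 0.13 had a limma adjusted p of 0.174. These matches describe the sequence only.

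Subunits made from mitochondrial DNA were lower at several probes. Of 12 tested probes, 1 per gene name, 6 were lower with VND3207 and 0 higher, with a median of -0.37 at a median level of 7.23. Among all probes at levels of 7 to 8, 18.7% were lower, and at 8 or more 44.4%. COX2, the copper-holding subunit of complex IV, had 7.81, 8.01 and 8.05 in VND3207 mice and 8.85, 8.94 and 8.62 in vehicle mice, a difference of -0.85 ± 0.13 without overlap (limma adjusted p = 0.00876). ND3 of complex I had 6.71, 6.87 and 6.85 against 7.55, 7.73 and 7.45, a difference of -0.76 ± 0.12 (limma adjusted p = 0.00851). The others were ND2 (-0.67), ND4 (-0.41), COX1 (-0.53) and COX3 (-0.53).

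After the correction for position, brightness and GC content 4 of these 6 (COX2, ND2, ND3 and COX3) passed (6.47% of all tested probes were lower). There were 2 lower calls under quantile normalization, 1 with the deposited values and 3 with the replicate block (8.97%, 8.8% and 9.45% of all tested probes). Normexp background correction and the trend and robust variance model each gave 7 (7.6% and 14.4%). The median was -0.25 after the correction, -0.090 under quantile normalization and -0.089 with the deposited values. Leaving out 1 array gave 3 without each VND3207 replicate in turn, 4 without vehicle replicate 1 or 3 and 2 without vehicle replicate 2. In those fits 8.22% to 14% of all tested probes were lower. The files place 5 of the 12 probes, COX2 and ND3 among them, on chromosome 1, so these may also match nuclear copies of mitochondrial DNA.

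Other genes of the pathway are read against the 14.6% lower and 0.925% higher of all tested probes. The share of lower probes changed with level. It was 24.9% at levels below -2, and 2.25% to 3.8% in each step of 1 from 0 to 5. The lists below of assembly factors, biogenesis regulators, citric acid cycle genes and carriers have median levels between 0 and 5. Few or no lower calls in those lists are thus near the share of all probes at such levels, and do not mark them as spared. Among 11 probes of subunits and partners outside the name rule, 1 was lower: Cox4i2, an isoform of complex IV subunit IV known from lung, had -0.61, -0.69 and -0.55 in VND3207 mice and -0.06, -0.02 and -0.09 in vehicle mice. The difference was -0.56 ± 0.09 without overlap (limma adjusted p = 0.0117), but -0.31 after the correction for position, brightness and GC content (adjusted p = 0.0891, limma). The median of the 11 was -0.15 and turned to 0.15 after that correction, so no direction is given for it. Of 58 probes of assembly factors, 1 was higher and 1 lower, with a median of 0.01. Ndufaf5, listed on the array as 2310003L22Rik, hydroxylates a complex I subunit during assembly. It had -0.43, -0.58 and -0.68 in VND3207 mice and -1.30, -1.20 and -1.44 in vehicle mice, without overlap, so it rose by 0.75 ± 0.12 (limma adjusted p = 0.00924). Lyrm7, an assembly factor of complex III, was well above background on 0 of 3 VND3207 arrays and 3 of 3 vehicle arrays, so it was tested through the vehicle arrays alone and its call is no support for a difference. After the correction it stood at -0.41 (limma adjusted p = 0.287).

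Among 27 probes of regulators of mitochondrial biogenesis 1 was higher, a Ppargc1a probe at 0.49 ± 0.11 (limma adjusted p = 0.035) but 0.18 after the correction (adjusted p = 0.404, limma), while the second probe of this coactivator differed by -0.02 ± 0.16. None of 24 citric acid cycle probes passed in either direction (median 0.02), the widest differences being 0.43 for a Pdhb probe and for Suclg2. None of 16 probes of mitochondrial carriers and porins passed either (median -0.05), with Slc25a1 at 0.37 and Slc25a20 at -0.33.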

How the data were processed

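Cy3-labelled RNA of each mouse was hybridised to a 1-colour Agilent array, read with Agilent Feature Extraction 10.7.1.1 per the submitters' processing notes. Processed signal was taken as intensity from the deposited scanner files; the file headers describe it as detrended and background-subtracted. The deposited value table holds log2 values, and its 6 columns share their quantiles (75th percentile 9.41); how it was made is not given in the sources used here. Control and outlier spots were left out, spots of a probe averaged, and log2 values set relative to each array's 75th percentile. Probes well above background on at least 3 of 6 arrays were kept, and 36098 were tested with limma 3.58.1 in R 4.3.3 (2-sided, group only, Benjamini-Hochberg, threshold 0.05), a fit tested on simulated data. Errors with ± are moderated standard errors.

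The members and lists were chosen with earlier results of these data known. Named probes of each complex were those past the threshold, the 3 brightest, the 2 most positive and 2 most negative, those not above background, and gene names whose probes differ by over 0.5. Alternatives were quantile normalization, a 75th percentile over detected probes, normexp (offset 50), the deposited table, other filters, 1 probe or a mean per gene name, other variance models, the replicate block, each array left out, and smooth trends with position, brightness and GC content (mgcv 1.9.3). The splits by brightness and by AATAAA, the settings tried on them and the promoter motifs were chosen after seeing the data. The NRF1 and YY1 motifs were first searched in forms 1 base longer, which fewer promoters held both among the members and among all genes; they were shortened after those shares had been seen, and no result of the longer forms is printed. One gene list and 1 pair of probe sequences are not reported here. p-values cover the spread between 3 mice a group.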

Additional observations from a re-analysis of the deposited data

How the results depend on the processing

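The count of lower members was 6 and of higher members 0 in the fit reported above. Quantile normalization gave 2 lower members (8.97% of all tested probes were lower), the deposited values 2 lower and 1 higher (8.8% and 2.55%), the trend and robust variance model 14 lower and 1 higher (14.4% lower), the replicate block 3 lower (9.45%), and the correction for position, brightness and GC content 3 lower and 2 higher (6.47% and 2.86%). A threshold of 0.10 gave 13 lower and 1 higher (18.2% and 2.26%). With 1 array left out the count of lower members was 1 to 5 (8.22% to 14% of all tested probes). None of the 3 lower members after the correction was among the 6: they were probes of Cox7c, Atp5c1 and Atp5l, and the 2 higher ones were of Cox8a and Atp5d.

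The median difference was -0.14 as reported, and -0.013, -0.014 and -0.0088 under quantile normalization, with the deposited values and after the correction. By complex, in that order of settings, it was -0.011, -0.012 and -0.015 for I, -0.075, -0.077 and -0.0062 for III, 0.082, 0.083 and 0.068 for IV, and -0.014, -0.015 and -0.056 for V. Quantile normalization put the median of all tested probes at 0.05 (-0.06 as reported) and lower calls at 77.6% of all calls (94.0% as reported, 69.3% after the correction). With 1 array left out the median of the members was -0.19 to -0.079. Of 533 values of 32 named probes under the alternatives, 485 kept their side of the threshold, 40 lost the call, 8 gained it and none of the called ones turned sign. Most of the 485 are probes that stayed uncalled, and all 40 losses fell on the 6 called probes. Atp5g3 kept its call in 16 of 17 alternatives, Atp5h in 14 of 16 and Atp5b in 9 of 17. Cox6a2 and the Uqcrq probe A_55_P1965378 each kept it in 8 of 17, and the other Uqcrq probe in 5 of 16.

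The count of member gene names with lower AATAAA probes was 3, and became 1 under normexp, 0 with the replicate block and 1 to 3 with 1 array left out. The shares of all gene names called in those fits are not given here. A loss particular to the members therefore cannot be told from a general one. The labels state no pairing of mice by replicate number. The correlation of same-numbered deviations was 0.13, -0.11 and -0.05 for replicates 1 to 3, and the highest with another number was 0.10, 0.12 and 0.30. With 3 arrays a group, each centred on its group mean, these values cannot exclude a pairing. The number of arrays limits the precision, and Cox8b was not well above background on every array.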

Other observations

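Single vehicle arrays stood apart at 2 members, in each case beside a second probe of the same gene that did not show it. The Atp5c1 probe A_55_P2150908 had 6.94, 6.95 and 7.09 in VND3207 mice and 7.26, 7.38 and 5.62 in vehicle mice. The Uqcr11 probe A_55_P1979743 had 6.15, 6.28 and 6.35 in VND3207 mice and 6.26, 6.46 and 5.53 in vehicle mice. It shares 52 of its 60 positions with the second Uqcr11 probe, which had 6.58, 6.73 and 6.76 in VND3207 mice and 6.87, 7.01 and 6.79 in vehicle mice, with 1 mismatch between them. Both low values are on the array of vehicle replicate 3.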
